A study of Saccharomyces cerevisiae W303 with 4 samples.

Results

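G-quadruplex (G4) motifs that lie outside protein-coding sequence were examined for Zuo1 occupancy in the yeast genome. A G4 motif was taken as 4 tracts of at least 3 G separated by loops of 1 to 25 nt on either strand of the sacCer3 (R64) sequence, and overlapping hits were merged. Of 658 motifs in all, 634 were nuclear, and 249 of these had their midpoint in no protein-coding sequence (CDS). They were sorted by the annotation into 79 telomeric motifs (midpoint in an annotated telomere), 8 motifs in the ribosomal DNA (rDNA) of chromosome XII, 122 upstream motifs (nearest CDS end is a start codon) and 40 downstream motifs (nearest CDS end is a stop codon). The 1 motif in an intron, that of YHL050C at TEL08L, is counted as telomeric and had its midpoint 210 bp outside the nearest peak. The G tracts were on the minus strand in 135 motifs and on the plus strand in 114. The other 385 nuclear motifs, called coding motifs here, were scored in the same way for comparison.

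The study tested where Zuo1 binds chromatin by ChIP-seq in asynchronous W303 cells grown at 30 °C, in which Zuo1 carried a C-terminal Myc tag. Chromatin was crosslinked with formaldehyde, sheared and precipitated with an antibody against Myc, giving 2 immunoprecipitated (IP) libraries and 2 input libraries, all from this 1 tagged strain. The authors called peaks once on the pooled libraries, and this list, the only file used here, gives no value per replicate and allows no test between replicates. An untagged strain was not analysed here. The pooled list holds 1594 peaks, of which 1543 are nuclear, with a median fold enrichment of 2.44 at nuclear summits. Fold enrichment is the IP signal over the local background at the summit, both raised by 1. Recovered from the fold enrichment and its p-value, the IP signal at a summit was 91 fragments in the median and between 43 and 522 in all peaks. W303 reads were placed on the S288C reference, and the copy number and exact sequence of repeats in the strain used were not tested.

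A G4 is a nucleic acid structure in which guanines of separate tracts stack into planar quartets held by Hoogsteen hydrogen bonds, and the loops between the tracts influence how readily it folds. Yeast telomeres end in irregular repeats of T and G, the rDNA is a tandem array of rRNA genes, and G-rich stretches also occur in promoters. Zuo1 (zuotin) is a J-domain protein that works with Ssz1 as the ribosome-associated complex on nascent chains and that is also found in the nucleus.

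The motifs of genes with the strongest peaks show what such sequences look like. Each is written 5′ to 3′ on the strand that carries the G tracts, with runs of at least 3 G in capitals. Where a motif was long, only its core is shown, which is the stretch of 4 tracts with the shortest loops.
MEO1 upstream core (chrII:490628-490655, minus strand): GGGcaggtcaGGGcaGGGGctctcaGGG
GPD1 upstream core (chrIV:411445-411468, minus strand): GGGtGGGGactttGGGtgcccGGG
SOD1 upstream core (chrX:623198-623222, plus strand): GGGtGGGtgcccctaaGGGagcGGG
YJR115W upstream motif (chrX:639551-639576, minus strand): GGGcGGGcgcggtgttgcGGGcGGGG
NPL3 downstream core (chrIV:1330173-1330190, minus strand): GGGaGGGGaGGGaatGGG
DNF2 downstream core (chrIV:636380-636400, plus strand): GGGcaaGGGcaaGGGGaaGGG
YML100W-A downstream core (chrXIII:70382-70409, plus strand): GGGagataggaaGGGGcGGGGGtccGGG
The cores of MEO1, GPD1 and NPL3 had loops of at most 7, 5 and 3 nt. Those of MEO1, GPD1 and YML100W-A were cut from motifs with 11, 12 and 9 tracts.

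At chromosome ends and in the rDNA, motifs occurred both as long arrays of G and T and as copies of 1 fixed sequence. The following were chosen to show the arrays, a repeated motif in both of its forms, and the ribosomal motifs.
TEL03L core (chrIII:220-241, minus strand): GGGtgtGGGGtgtGGGtgtGGG
TEL06L core (chrVI:4775-4803, minus strand): GGGtgtGGGtgtggtGGGtgtggtgtGGG
Subtelomeric repeat motif, common form (chrII:5595-5644, minus strand): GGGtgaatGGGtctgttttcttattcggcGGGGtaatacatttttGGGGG
Subtelomeric repeat motif, variant form (chrXII:10945-10994, minus strand): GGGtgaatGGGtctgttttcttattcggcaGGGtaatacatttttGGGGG
25S rRNA motif (chrXII:452561-452609, minus strand): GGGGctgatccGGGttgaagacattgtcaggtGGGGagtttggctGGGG
18S rRNA motif (chrXII:457343-457378, minus strand): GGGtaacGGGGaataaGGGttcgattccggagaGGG
rDNA spacer motif (chrXII:459597-459645, minus strand): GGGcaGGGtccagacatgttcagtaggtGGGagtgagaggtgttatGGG
The common and the variant form of the subtelomeric motif differ by G30A, counted from 1 at the 5′ end of the common form, which shortens the third tract. The common form occurs 9 times and the variant form 3 times in the genome, always at telomeres. Whether the sequence around the copies is alike, and whether reads of 1 copy were placed at another, was not tested.

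Motifs with short loops whose midpoint was not in a peak are shown for contrast, although part of the COQ21 motif overlaps one.
ACC1 upstream motif (chrXIV:661655-661673, plus strand): GGGaGGGaaGGGcagaGGG
SLS1 downstream core (chrXII:421493-421507, plus strand): GGGaGGGGGGGGGGG
COQ21 upstream core (chrII:680208-680229, plus strand): GGGtagtaGGGcaGGGaaaGGG
The motif upstream of COQ21 lies inside a qPCR amplicon that the study used for G4 sites. Its values are given with the upstream motifs.

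Nearly every motif at telomeres and all of those in the rDNA lay in a Zuo1 peak, whereas about 1 in 5 of the motifs beside genes did. In total, 111 of 249 non-coding motifs (44.6%, 95% Clopper-Pearson interval 38.3 to 51.0) had their midpoint in a peak. The background for the same rule is the share of all non-coding nuclear bases in a peak, 10.2%. The 2 shares mix the classes differently, since 79 of the 249 motifs but only 50727 of the 3337770 bases are telomeric. The same holds for the 3-fold shares below, and shares of motifs and bases within each class follow in the next paragraph. The 111 motifs fell in 71 peaks, and the fold enrichment of the peak holding a motif had a median of 8.43 over motifs. The 1410 nuclear peaks that held no motif midpoint had a median of 2.37 over peaks. These 2 medians are not alike, since 71 of the 111 motifs are telomeric and 8 share the single rDNA peak. The 32 motifs beside genes, each in a peak of its own, had a median of 3.83. In peaks of 3-fold or more lay 104 of the 249 motifs (41.8%) and 3.68% of non-coding bases. Of these 104, 71 were telomeric and 8 in the rDNA, while the share was 13.9% for upstream and 20% for downstream motifs. No share of bases by class is given for this threshold. The intervals describe the number of motifs only and not the error between cultures.

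By class, 71 of 79 telomeric motifs (89.9%, interval 81.0 to 95.5) were in a peak, beside 59.1% of telomeric bases. All 8 rDNA motifs (100%, interval 63.1 to 100) were in a peak, beside 77.2% of rDNA bases. Of upstream motifs, 23 of 122 (18.9%, interval 12.3 to 26.9) were in a peak, beside 6.24% of upstream bases. Of downstream motifs, 9 of 40 (22.5%, interval 10.8 to 38.5) were in a peak, beside 11.0% of downstream bases. The share of motifs was thus 1.52 times that of bases at telomeres (1.37 to 1.62), 1.30 times in the rDNA (0.817 to 1.30), 3.02 times upstream (1.98 to 4.32) and 2.04 times downstream (0.983 to 3.49). The intervals of the rDNA and downstream ratios include a ratio of 1, so that no difference between motifs and bases was shown there. These intervals treat motifs as separate, although the 71 telomeric motifs fell in 38 peaks and the 8 rDNA motifs in 1. They are therefore no test of a difference from 1 in any class. For coding motifs, 74 of 385 (19.2%, interval 15.4 to 23.5) were in a peak, beside 7.72% of coding bases, a ratio of 2.49 (2.00 to 3.05). Upstream and downstream motifs together gave 32 of 162 (19.8%, interval 13.9 to 26.7), which overlaps the interval of the coding motifs.

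**Figure D1:**
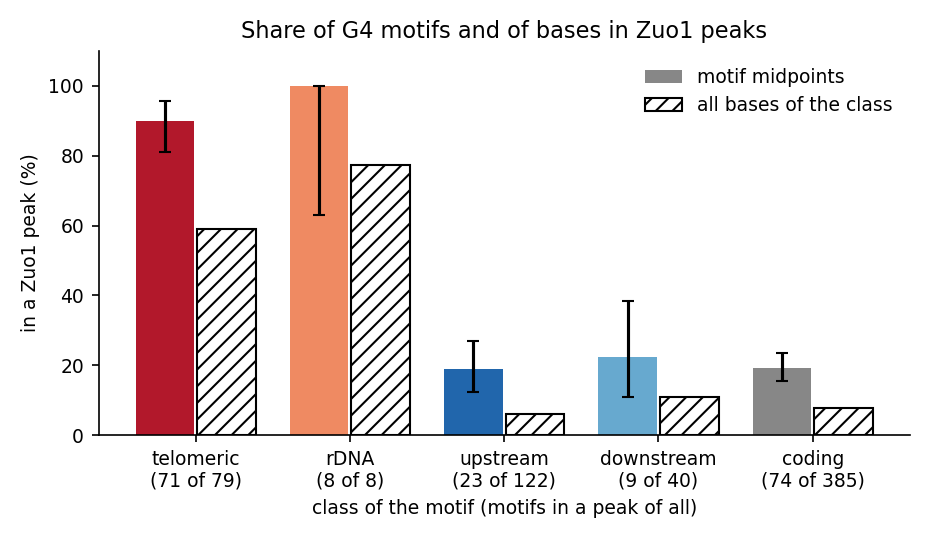
Percentage of motif midpoints (filled bars, with 95% Clopper-Pearson intervals) and of all bases (hatched bars) that lie in a Zuo1 peak, for each class. Telomeric (89.9%) and rDNA motifs (100%) stand far above upstream (18.9%), downstream (22.5%) and coding motifs (19.2%), and the bases of the telomeres (59.1%) and the rDNA (77.2%) do so as well.

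The peaks at telomeric motifs were also the stronger ones. The fold enrichment of the peak had a median of 9.19 (3.43 to 11.9) over telomeric motifs, 3.53 (2.37 to 7.60) over upstream motifs and 6.53 (2.53 to 12) over downstream motifs. The single rDNA peak reached 11.2. Coding motifs in a peak had a median of 4.62 with a range from 1.68 to 11.2. The ranges of all these classes overlap, and the lowest telomeric value lies above the lowest values of the upstream, downstream and coding motifs.

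**Figure D2:**
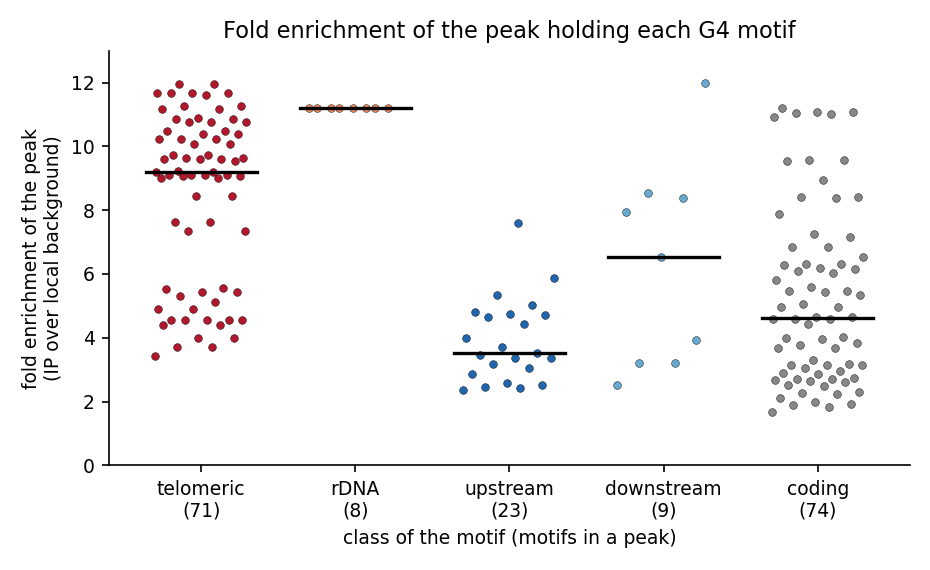
Fold enrichment (IP over local background at the summit) of the peak that holds each motif, 1 point per motif, with the median as a line. Telomeric motifs (median 9.19) lie mostly above upstream motifs (median 3.53), and the 8 rDNA points are 1 peak of 11.2.

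The recovered numbers of fragments show how these ratios arise. Over telomeric motifs, the IP had a median of 238 fragments (97 to 500) and the local background 37.9 (8.39 to 45.3). Over upstream motifs, it was 139 (90 to 295) and 37.9 (33.2 to 42.3), so that the medians of the background were equal and that of the IP was higher at telomeres. Over downstream motifs, the IP had a median of 224 fragments (98 to 420), and the background was 36.1. Among the 38 telomeric peaks, 13 had a background under 30 fragments (8.39 to 27.8), and each of these reached the chromosome end, as did 11 of the other 25. Their IP ranged from 97 to 265 fragments and their fold enrichment had a median of 10.2. Those other 25, with a background of 34.1 or more, held 137 to 500 IP fragments and had a median fold enrichment of 7.34. The part of the low background in the ratios of the 13 was not tested.

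**Figure D3:**
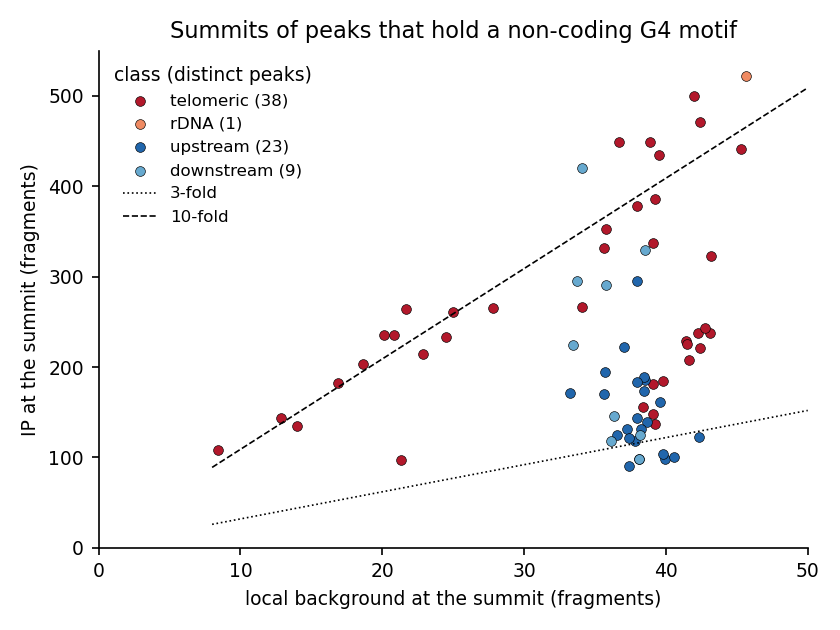
IP fragments against local background fragments at the summit of each distinct peak that holds a non-coding motif, colored by class, with lines for 3-fold and 10-fold enrichment. Upstream and downstream peaks share a background near 33 to 42 fragments, while 13 telomeric peaks lie at 8.39 to 27.8.

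Among the non-coding classes, telomeres carry the most motifs in peaks. All 79 telomeric motifs had their G tracts on the strand that runs 5′ to 3′ toward the chromosome end, the strand that carries the terminal repeats of T and G. Of 32 annotated telomeres, 30 held a motif and 29 of these held a motif in a peak. The highest fold enrichment at a motif per telomere ranged from 3.99 to 11.9 with a median of 9.62. TEL06L (11.9), TEL15L (11.7) and TEL03L (11.7) were the highest, each with a motif of 27, 14 and 41 G tracts, respectively. A second motif of TEL15L, with 4 tracts, lay in the same peak, 215 bp from its summit. The motif of TEL03L spans 478 bp and lay with its midpoint 23 bp from a summit of 500 IP fragments. TEL07L was the exception, since its motif of 11 tracts ends 123 bp from the chromosome end and no peak was called on that telomere. TEL05L and TEL06R hold no motif in the reference, and their highest peaks had fold enrichments of 4.83 and 7.68.

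Motifs with more tracts lay closer to the summit. Of 25 telomeric motifs with 8 or more tracts, 24 were in a peak, with a median fold enrichment of 9.99 and a median of 48 bp between midpoint and summit. All 30 with 5 to 7 tracts were in a peak, at a median of 182 bp. Of 23 with 4 tracts, 17 were in a peak, at a median of 226 bp. Over all 71 telomeric motifs in a peak the median distance was 147 bp. The median base of the same peaks was 166 bp from the summit, and 40 of 71 motifs were nearer to it than the middle base of their peak. The distance was 64 bp when each of the 38 peaks counted once with its nearest motif, a choice that lowers it by construction. Within 1000 bp of the chromosome end, 41 of 42 motifs were in a peak, and farther inside 30 of 37. On telomeres with a Y′ element, the long subtelomeric repeat that some chromosome ends carry, 45 of 52 motifs were in a peak with a median fold enrichment of 9.09. On those without, 26 of 27 were, with a median of 10.3. Shares of bases for these zones and groups of telomeres were not computed, and 59.1% of all telomeric bases lay in a peak. Whether the counts differ from the share of bases in each zone was not tested. The peaks of 7 telomeric motifs also overlap a replication origin.

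Copies of 1 sequence at different telomeres had different values. The 79 motifs had 55 distinct sequences, and 32 motifs shared theirs with another copy. Of those, 26 of 32 were in a peak (median fold enrichment 5.55), against 45 of 47 with a sequence of their own (9.73). The common form shown above was in a peak at 6 of its 9 copies, where the fold enrichment ran from 3.99 at TEL02L to 11.9 at TEL06L and the summit was 165 to 294 bp away. The midpoints of its other 3 copies lay 8 to 45 bp outside a peak. By the midpoint rule, the variant form was in no peak at any of its 3 copies, 2 of them at TEL12L. Their midpoints lay 7 to 18 bp outside of peaks with fold enrichments of 7.64 to 10.9, and part of each copy overlapped that peak. Most copies of the common form in a peak also had their midpoint close to a peak edge. The contrast between the 2 forms thus depends on the midpoint rule. Together, the copies of both forms outside by this rule make up 6 of the 8 telomeric motifs without a peak. When 1 bp of overlap sufficed, 5 more telomeric motifs were counted. The longest repeated motif, of 95 nt with 8 identical copies, was in a peak at every copy with fold enrichments of 4.91 to 9.73, and its midpoint lay 145 to 700 bp from the summit.

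The rDNA motifs are 4 sequences present in 2 copies each, because the reference holds only 2 repeats of the array. In each repeat, a pair lies in RDN25, which encodes the 25S rRNA, 1 lies in RDN18, which encodes the 18S rRNA, and 1 lies in the spacer beside RDN5, which encodes the 5S rRNA. The G tracts are on the minus strand, the RNA-like strand of the 25S and 18S genes. All 8 fell in a single peak of 18162 bp that covers both repeats, has a fold enrichment of 11.2 and reaches 522 IP fragments over a background of 45.6. Its summit lay 932 bp from the motif in RDN18-1 and 12330 bp from the spacer motif of the second repeat. Since the peak spans the array, the list gives no separate value for any of these motifs, and none of them had a summit within 250 bp. The motif in RDN18 equals an oligonucleotide that the study used as an rDNA G4. The peak also overlaps the replication origins ARS1200-1 and ARS1200-2.

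Upstream motifs were seldom in a peak, but those that were lay near its summit. The 23 motifs fell in 23 separate peaks with a median of 57 bp to the summit. The summit was within the motif in 10 cases and within 100 bp of the midpoint in 15. The median base of the same peaks was 97 bp from the summit, and 16 of 23 motifs were nearer to it than the middle base of their peak. None of the 23 summits lay in a CDS, and none of these peaks held a coding motif. The upstream share depended on where telomeres end, since it became 30.9% (47 of 152) when only the terminal 5000 bp counted as telomeric and inner subtelomeric motifs counted as upstream.

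The strongest upstream peak had a fold enrichment of 7.60 and 295 IP fragments over a background of 37.9. It lies between MEO1 and TPS1, which encodes the synthase of trehalose-6-phosphate and is read in the opposite direction. The motif, with 11 tracts, was 163 bp from the start codon of MEO1, and its midpoint was 2 bp from the summit. The GPD1 motif, with 12 tracts, had a fold enrichment of 5.34 and lay 13 bp from the summit. GPD1 encodes the glycerol-3-phosphate dehydrogenase that makes glycerol under osmotic stress. These were the only upstream motifs with 8 or more tracts.

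The MAM3 motif, with 4 tracts and a longest loop of 22 nt, had a fold enrichment of 5.86 with the summit 136 bp away. It lies between MAM3 and GPD2, the second gene for glycerol-3-phosphate dehydrogenase. At YJR115W, an uncharacterized gene beside the mitochondrial ribosomal protein gene RSM7, the motif reached 5.02. The GTT3 motif had a fold enrichment of 4.81, 10 bp from the summit, next to PMP2, a small regulator of the plasma membrane proton ATPase. SOD1, the copper-zinc superoxide dismutase, had 4.75 at 16 bp, and GLY1, the threonine aldolase of glycine synthesis, had 4.73 at 7 bp. DLD1, a mitochondrial D-lactate dehydrogenase, had 4.66 at 37 bp. All 8 of these strongest motifs lie between divergently transcribed genes, as do 19 of the 23 upstream motifs in a peak and 81 of all 122.

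The other 15 upstream motifs in peaks had fold enrichments of 2.37 to 4.43. Of the 8 upstream motifs nearest to a ribosomal protein gene, 3 were in a peak, those of RPL42B (2.45), RPS8B (2.57) and RPL23B (3.99), and 5 were not. The MSN4 motif (3.45) lies at the gene for a transcription factor of the general stress response. These genes were picked with their values in view. The peak at ATP1 (3.36) also overlaps a tRNA gene and a Ty4 long terminal repeat, and the peak at DFR1 (2.86) the snoRNA gene SNR17A. What these genes contribute to both peaks was not tested.

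Orientation, G strand and distance from the gene gave shares whose intervals overlapped. Between divergent genes, 19 of 81 upstream motifs (23.5%, interval 14.8 to 34.2) were in a peak, and between genes in tandem 4 of 41 (9.76%, interval 2.72 to 23.1). With G on the coding strand of the nearest gene, 12 of 63 were in a peak (19%), and with G on the template strand 11 of 59 (18.6%). The corresponding median fold enrichments were 3.49 and 4.66, with overlapping ranges. The midpoint lay a median of 257 bp from the start codon over all upstream motifs. Shares by distance were 10 of 60 within 250 bp, 8 of 43 at 251 to 500 bp and 5 of 19 beyond. Shares of bases by orientation or distance were not computed, and 6.24% of all upstream bases lay in a peak. Whether these counts concern the motifs or the places where peaks lie was not tested.

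Most upstream motifs, 99 of 122, were outside peaks, and 23 of those had a peak edge within 500 bp. Over all 99, the median distance from the midpoint to the nearest peak was 2310 bp. The COQ21 motif, which has a longest loop of 5 nt, had its midpoint 4 bp outside a peak with a fold enrichment of 3.67. Part of the motif and its qPCR amplicon overlap that peak. COQ21 shares its upstream region with OM14, a protein of the mitochondrial outer membrane. The FMP46 motif, inside another of the study's G4 amplicons and next to the potassium transporter gene TRK2, was 190 bp from a peak of 2.65. That amplicon overlaps no peak of the list, although the study counts the sites of both amplicons among its Zuo1 targets.

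The peaks at downstream motifs had a higher median fold enrichment than those at upstream motifs, with overlapping ranges. The 9 motifs had a median distance of 15 bp to the summit, the summit lay within the motif in 6, and 9 of 9 were nearer to the summit than the middle base of their peak, whose median was 140 bp. The highest was at NPL3, which encodes an RNA-binding protein of mRNA export and processing. Its peak had a fold enrichment of 12 with 420 IP fragments over 34.1, but the summit lies 440 bp away inside the NPL3 coding sequence. ART5, an adaptor for ubiquitin ligation of membrane proteins, had 8.53, with the summit 104 bp away in its own coding sequence. The remaining 7 summits were outside coding sequence.

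At PTC2, a type 2C protein phosphatase, the motif was 11 bp from a summit with a fold enrichment of 8.37, and this peak also held a coding motif. DNF2, a flippase of aminophospholipids, had 7.95 at 121 bp. At YML100W-A, the motif of 9 tracts had 6.53 at 14 bp. It lies 202 bp before TSL1, which encodes a large subunit of the trehalose synthase complex, and the peak of 1646 bp also held a coding motif. TIM23, the channel of the mitochondrial inner membrane translocase, had 3.93 at 20 bp.

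Between genes in tandem, 9 of 36 downstream motifs were in a peak, and between convergent genes 0 of 4, with an upper Clopper-Pearson bound of 60.2%. Shares of bases by orientation were not computed here either, and 11.0% of all downstream bases lay in a peak. With G on the coding strand, 3 of 16 were in a peak, and with G on the template strand 6 of 24 (25%, interval 9.77 to 46.7). Of the 31 downstream motifs outside peaks, 6 had a peak edge within 500 bp.

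**Figure D4:**
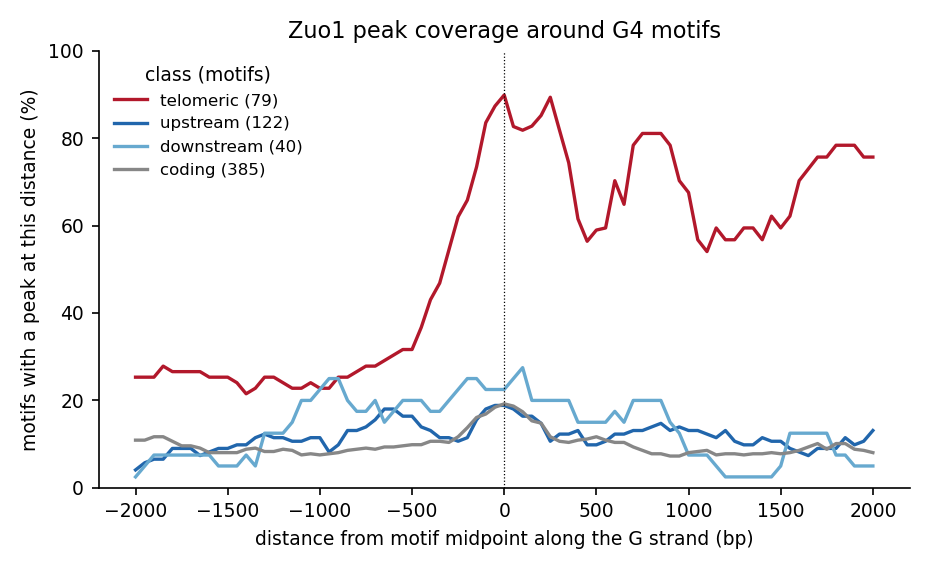
Percentage of motifs of each class that have a Zuo1 peak at a given distance from the motif midpoint, in steps of 50 bp along the strand with the G tracts. Upstream motifs reach 18.9% at the midpoint and nearly as much 600 to 650 bp to the left, and telomeric motifs 89.9% at the midpoint; telomeric values to the right come from fewer motifs, 47 of 79 at 250 bp, because the chromosome ends.

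Around upstream motifs, peak coverage was 18.9% at the midpoint, 10.7% at 250 bp on either side, 18% (22 of 122) again at 600 and 650 bp on the 5′ side, and 4.10% and 13.1% at 2000 bp on the 5′ and 3′ side of the G strand. The midpoint value was thus nearly matched elsewhere in the profile. For coding motifs it fell from 19.2% to 11.7% at 250 bp on either side. Around downstream motifs it was 22.5% at the midpoint and 22.5% and 20% at 250 bp on the 5′ and 3′ side. The downstream midpoint value was exceeded elsewhere, with 27.5% at 100 bp on the 3′ side and 25% at 900 and 950 bp on the 5′ side. At telomeres, coverage was 89.9% at the midpoint, 62.0% at 250 bp on the inner side and 31.6% at 500 bp. On the outer side, over the motifs with sequence left there, it did not fall in this way. It was 89.4% (42 of 47) at 250 bp, 59.0% (23 of 39) at 500 bp and 81.1% (30 of 37) at 750 bp. The telomeric midpoint value was thus nearly matched toward the chromosome end.

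The share in a peak was higher for motifs with short loops and for motifs with many tracts. Over all non-coding motifs, 19 of 29 with loops of 1 to 7 nt (65.5%), 27 of 42 with 8 to 12 nt (64.3%), 36 of 75 with 13 to 18 nt (48.0%) and 29 of 103 with 19 to 25 nt (28.2%) were in a peak. Here the loop length is the smallest value that the longest loop of the motif can take. The corresponding medians of fold enrichment were 9.62, 8.99, 7.85 and 4.81. Telomeric motifs are common among those with short loops, and by themselves gave 12 of 12, 19 of 21, 23 of 26 and 17 of 20.

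Beside genes the share also fell with loop length in the pooled set, but not in every step of each class. Upstream and downstream motifs together were in a peak in 7 of 17 cases at 1 to 7 nt (41.2%), 8 of 21 at 8 to 12 nt (38.1%), 7 of 43 at 13 to 18 nt (16.3%) and 10 of 81 at 19 to 25 nt (12.3%). With loops of at most 12 nt the share was 15 of 38 (39.5%, interval 24 to 56.6), and with longer loops 17 of 124 (13.7%, interval 8.19 to 21.0). These intervals treat motifs as separate and are no test of a difference by loop length. Upstream motifs alone gave 5 of 13 (38.5%), 4 of 14 (28.6%), 4 of 34 (11.8%) and 10 of 61 (16.4%), and downstream motifs 2 of 4, 4 of 7, 3 of 9 and 0 of 20. Thus all 20 downstream motifs with loops of 19 to 25 nt were outside peaks, whereas 6 of 11 with loops of at most 12 nt were in one. Coding motifs showed less of a range, with 2 of 8, 11 of 44 (25%), 20 of 105 (19%) and 41 of 228 (18%) over the same bins.

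The number of tracts went the same way, but it is not independent of loop length. A motif with more tracts offers more choices of 4 tracts, and the smallest longest loop is taken. Beside genes the median loop length was 19 nt with 4 tracts, 18 nt with 5 to 7 and 7 nt with 8 or more. Of upstream and downstream motifs, 16 of 113 with 4 tracts (14.2%, interval 8.32 to 22), 13 of 41 with 5 to 7 (31.7%, interval 18.1 to 48.1) and all 3 with 8 or more were in a peak. The last 3 were those of MEO1, GPD1 and YML100W-A, and each midpoint lay at most 14 bp from the summit. Coding motifs were in a peak in 56 of 303 cases with 4 tracts (18.5%) and 18 of 77 with 5 to 7 (23.4%).

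**Figure D5:**
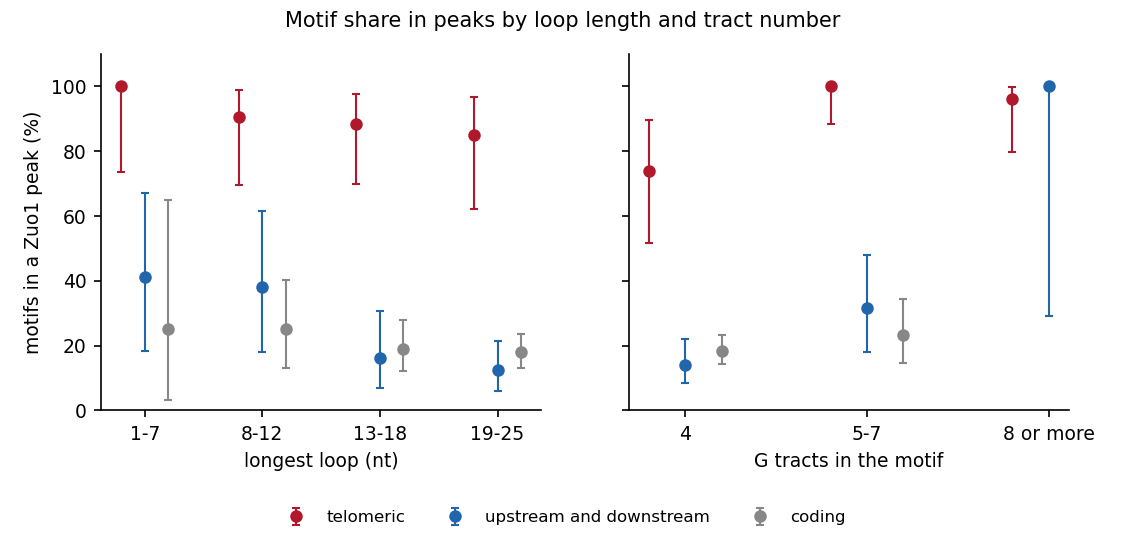
Percentage of motifs in a Zuo1 peak by longest loop (left) and by number of G tracts (right), with 95% Clopper-Pearson intervals, for telomeric, upstream with downstream, and coding motifs. Beside genes the share falls from 41.2% at 1 to 7 nt to 12.3% at 19 to 25 nt, while telomeric motifs stay at 85.0% or above in each loop bin.

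Base composition moved with these shares. GC content was taken within 250 bp of the motif midpoint, with the motif itself left out. It had a median of 43.3% for upstream motifs in a peak and 39.1% for the others, and of 46.8% and 38.6% for downstream motifs. Upstream and downstream motifs were in a peak in 1 of 29 cases with a flanking GC content under 35%, 6 of 54 (11.1%) at 35 to 40%, 13 of 57 (22.8%) at 40 to 45% and 12 of 22 (54.5%) at 45% or more. Among upstream and downstream bases more than 500 bp from any motif, 10.8%, 5.32%, 5.75% and 28.8% were in a peak in these bins. The 1 motif under 35% was that of NPL3. Within bins, motifs with loops of at most 12 nt against longer loops gave 1 of 6 against 0 of 23, 3 of 9 against 3 of 45, 5 of 12 against 8 of 45, and 6 of 11 against 6 of 11. The part of GC content in the loop pattern was not tested beyond these counts.

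Several motifs with the shortest loops had their midpoint in no peak. The motifs downstream of ECM32, which encodes a helicase, and of SLS1, a protein of mitochondrial expression, hold runs of almost pure G, and their midpoints lay 692 and 2128 bp from the nearest peak. A second motif upstream of YJR115W, with a core of pure G, had its midpoint 25 bp outside the peak that holds the first, and part of it overlaps that peak. The 5 upstream or downstream motifs made of fewer than 4 separate runs of G, among them those of ECM32 and SLS1, were all outside peaks, and how well reads can be placed in such runs was not tested. The short-loop ACC1 motif, upstream of the acetyl-CoA carboxylase gene, was 266 bp from a peak of 3.18. That peak holds a second ACC1 motif with a loop of 18 nt, and the TIM23 motif described above lies farther along the same chromosome.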

How the data were processed

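ChIP-seq of Myc-tagged Zuo1 in W303 was analysed from the deposited peak list (2 IP and 2 input samples, pooled). The authors used bowtie (Bowtie2 per the labels) for alignment to sacCer3, and called narrow peaks with MACS2 at a q-value of 0.05. The deposited header belongs to another MACS table, and columns were read by position, which all 1594 peaks fit. From MACS, the authors obtained the fold enrichment at the summit (a ratio of IP signal to local background), −log10 p-values and q-values, and a score, 10 times the −log10 q, which was not used. Input was assumed to be the control, although the command given in the study lists 1 input library with the treatment and 1 IP library with the control. Library depths are not in the list, and IP and background fragments at each summit were recovered from fold and p-value.

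The R64 sequence and annotation were those of RefSeq, with peak ends inside its chromosome lengths. A motif counted as in a peak when its midpoint was, and its background was the share of bases of its class. Telomeres are annotated features and the rDNA runs from the first to the last rRNA gene of the cluster. Tract number counts separate runs of at least 3 G. Intervals are Clopper-Pearson at 95%, which cover counting error only. With 1 pooled list no p-value was computed, since motifs are not replicates.

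Named motifs were the 8 upstream, 6 downstream and 5 telomeric with the highest fold, all rDNA motifs, the 5 beside genes with the shortest loops and no peak, and those in amplicons or oligonucleotides of the study. Of these, 1 motif is not reported here. Members and lists were chosen with earlier results of these data known. Tract number, GC content, repeat copies, gene orientation, background of telomeric peaks and coverage profiles were added after values were seen. Alternatives changed the overlap rule, the peak list, the loops, the classes and the counting of peaks. Scripts were tested on simulated data. Python 3.11.15, NumPy 2.4.6, SciPy 1.17.1, pandas 2.3.3 and matplotlib 3.10.9 were used.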

Additional observations from a re-analysis of the deposited data

How the results depend on the processing

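Of 108 values recomputed under the alternatives, 84 stayed within the interval of the reported value and 24 moved out of it. With peaks of 3-fold or more, no CDS base in the motif, motifs within 500 bp of the CDS, or peaks with a tRNA gene or long terminal repeat left out, no value moved. With 1 bp of overlap, the telomeric share was 96.2%. With a summit within 250 bp of the midpoint, the shares were 38.2% for all motifs, 77.2% for telomeric motifs, 0% for rDNA motifs and 29.3% for loops of 13 to 18 nt. With peaks of 2000 bp or longer left out, they were 36.5%, 74.7% and 0% for all, telomeric and rDNA motifs. With loops of 1 to 12 nt, the share was 70.1% for all, 33.3% for upstream and 54.5% for downstream motifs, 33.3% for upstream motifs with G on the coding or on the template strand, and 75.0% for downstream motifs with G on the coding strand, while the telomeric fold enrichment had a median of 10.2 and the telomeric distance to the summit one of 62.5 bp. With each peak counted once by its nearest motif, the telomeric distance was 64 bp. With the terminal 5000 bp in place of annotated telomeres, the telomeric share was 95.6% and the upstream share 30.9%, since 47 of 152 motifs then called upstream were in a peak. Without telomeric and rDNA motifs, the share of all motifs was 19.8%, and those of the 4 loop bins were 41.2%, 38.1%, 16.3% and 12.3%. No paired analysis was possible because the peak list, the only file used here, pools the replicates, and no replicate could be left out for the same reason. Classes of few motifs, such as the 8 in the rDNA and the 40 downstream, limit the precision, and no peak summit had fewer than 43 IP fragments.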
